A study of Mus musculus with 6 samples.

Results

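The immediate early transcription factors are genes that cells switch on within minutes of a growth factor, neural activity or stress, without first making new protein. Their levels were read here in cochleae of mouse embryos that carry the intact Igf1 gene or none. The set comprised 10 genes: Fos, Fosb, Jun, Junb and Jund, whose products pair as the dimeric transcription factor AP-1; Egr1, a zinc finger factor; Atf3, a stress-induced partner of JUN proteins; Nr4a1, an orphan nuclear receptor; and Ier2 and Ier3, which are induced with them. All probe sets on the array annotated to 1 of these genes alone were taken, which gave 11 probe sets, 2 for Jun and 1 for each of the other genes, of 12393 genes so represented. Signal was log2 array signal after quantile normalization, in which every array is given the same distribution of values.

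In Igf1-/- (null) and Igf1+/+ (wild type) cochleae of embryonic day 18.5, RNA was compared on 6 single-colour Affymetrix arrays. There were 3 independent pools per genotype, each of 4 cochleae with their otic capsule and without vestibular tissue, from heterozygous matings on C57BL/6J. The part of Igf1 that is disrupted is not given in the sources used here, and each pool mixes embryos, so no value belongs to 1 animal. Titles and descriptions give the genotypes used here. The source label carries the wild type sign on all 6 samples, and gives wild type replicate 2 an age of 18.6 days.

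IGF1, a secreted growth factor, acts through a receptor tyrosine kinase that feeds the RAS to ERK and the PI3K to AKT cascades. ERK phosphorylates ternary complex factors, which sit with serum response factor on CArG boxes of the Fos and Egr1 genes, and kinases downstream of calcium and cyclic AMP act through CREB on cyclic AMP response elements. In brain and sensory tissue these genes are also known for their response to dissection and handling.

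The start regions of 4 members are printed because Jun and Ier3 were the members whose genotypes did not overlap, Fos had a wide spread among the pools, and Nr4a1 had the densest motif matches. Each runs from 250 bases before to 50 bases after the annotated start, 5′ to 3′ on the gene's strand, from RefSeq with build GRCm38.p6. They lie at chr12:85473640-85473939 (plus strand) for Fos, chr4:95052173-95052472 (minus) for Jun, chr17:35821463-35821762 (plus) for Ier3 and chr15:101266596-101266895 (plus) for Nr4a1. Capitals mark a match, on either strand, to TGACGTCA (the cyclic AMP response element), TGACG (its core, which lies within it), TGANTCA (the AP-1 site), TGACATCA (the variant AP-1 site of the Jun promoter) or a CArG box.
Fos: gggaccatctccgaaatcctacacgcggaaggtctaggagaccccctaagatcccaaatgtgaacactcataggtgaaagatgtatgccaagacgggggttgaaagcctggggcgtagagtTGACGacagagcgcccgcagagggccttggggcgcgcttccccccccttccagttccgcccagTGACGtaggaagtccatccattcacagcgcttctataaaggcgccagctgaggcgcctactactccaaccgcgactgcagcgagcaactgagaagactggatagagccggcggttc
Jun: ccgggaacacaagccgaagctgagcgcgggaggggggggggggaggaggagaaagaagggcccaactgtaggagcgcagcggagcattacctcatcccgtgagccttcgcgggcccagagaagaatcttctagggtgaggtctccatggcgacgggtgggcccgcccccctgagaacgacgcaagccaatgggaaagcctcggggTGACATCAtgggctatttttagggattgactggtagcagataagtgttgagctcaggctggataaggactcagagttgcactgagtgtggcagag
Ier3: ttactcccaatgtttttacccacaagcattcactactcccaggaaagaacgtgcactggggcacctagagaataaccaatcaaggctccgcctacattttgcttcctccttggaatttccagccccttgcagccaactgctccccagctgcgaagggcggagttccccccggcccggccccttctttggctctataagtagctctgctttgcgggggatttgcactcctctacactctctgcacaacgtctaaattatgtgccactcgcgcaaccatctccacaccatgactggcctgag
Nr4a1: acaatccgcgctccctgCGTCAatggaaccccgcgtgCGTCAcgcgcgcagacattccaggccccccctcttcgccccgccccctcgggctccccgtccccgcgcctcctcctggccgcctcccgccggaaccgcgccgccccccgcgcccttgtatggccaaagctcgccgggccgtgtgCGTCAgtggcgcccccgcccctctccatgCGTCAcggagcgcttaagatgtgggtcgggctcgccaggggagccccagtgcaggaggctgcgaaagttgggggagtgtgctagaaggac

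Of the 8 members with a start region searched, 5 held TGACG (Fos, Fosb, Junb, Atf3 and Nr4a1), against 20.8% of 32851 start regions of the same length. Fos held it at -66 to -62 from the start site and again at -129 to -125, and Nr4a1 held 4 copies, all on the other strand. Jun held TGACATCA at -45 to -38, a string present in 3.62% of all start regions. Egr1 and Ier2 were not searched. Within the bases searched, none of the 8 held the full TGACGTCA, TGANTCA or a CArG box, present in 1.79%, 7.81% and 1.63% of start regions. The CArG box was taken as CCWWWWWWGG, where W is A or T, and near matches to any string were not searched. Bases more than 250 before the start were not searched. The absence of a CArG box here therefore does not show that Fos or another member lacks one. A match is a string of letters, not a measured binding site.

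Tissue content varied between pools, and wild type replicate 2 stood apart. Neuron markers (9 of 9 measured, among them Tubb3 and Nefm) averaged 8.18, 8.54 and 7.70 in null replicates 1 to 3, against 7.40, 9.15 and 7.78 in wild type replicates 1 to 3. Skeletal muscle markers (8 of 9 measured) averaged 11.28, 10.61 and 9.50 in null replicates 1 to 3, against 10.68, 9.36 and 11.27 in wild type replicates 1 to 3. Wild type replicate 2 had the most neuron and the least muscle signal, with summed signals of 9237 against 2713 to 5681 in the other pools for neurons and of 7022 against 7224 to 23614 for muscle. Y-linked genes (3 of 4 measured) averaged 3.10, 5.92 and 5.54 in null replicates 1 to 3, against 0.24, 5.61 and 1.19 in wild type replicates 1 to 3. The part of neuron, muscle and Y-linked signal in the values below was not tested, and the summary of the members is also given without wild type replicate 2. Coch, an otic marker, was bright in every pool (8.99, 8.74 and 9.15 in null pools, against 8.83, 8.26 and 8.72 in wild type pools). Not all otic markers were: Prox1 was 4.10, 3.59 and 3.78 in null pools, against 2.77, 3.68 and 3.61 in wild type pools.

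Igf1 itself was read first. At its brightest probe set it was 10.60, 10.46 and 10.72 in null replicates 1 to 3, against 11.14, 10.99 and 11.02 in wild type replicates 1 to 3. Null pools thus kept a bright signal there, 0.73 of the wild type level. At the probe set with the widest step it was 7.14, 6.92 and 7.13 in null replicates 1 to 3, against 7.93, 8.09 and 8.14 in wild type replicates 1 to 3. All null arrays lay below all wild type arrays at each of its 3 probe sets, with differences of -0.46, -0.99 and -0.55 on the log2 scale. Exact permutation, two-sided, gave p = 0.1 at each, the smallest that 3 against 3 arrays allow, and the limma p adjusted over all probe sets ran from 0.600 to 0.889. Since the disrupted part is not known here, the Igf1 signal that remained in null pools does not settle their genotype.

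No member differed between the genotypes past the threshold. In limma, 0 of the 11 member probe sets had an adjusted p below 0.05 and 0 an unadjusted p below 0.05, where 0.0% and 4.99% of the 22626 probe sets tested did (0 and 1130). As values, 8 of the 10 genes were lower and 2 higher in null cochleae at their brightest probe set, with a median difference of -0.33, where 49.3% of all probe sets were lower and the median was 0.0041. In 2 genes (Jun and Ier3) the null arrays all lay below the wild type arrays, as in 5.3% of all probe sets, and in 0 they all lay above, as in 5.53%. In bulk tissue, fewer cells of a type and less RNA per cell cannot be told apart. Differences, given as null minus wild type, had 95% intervals that all included 0.

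Jun, the AP-1 subunit that binds DNA as a dimer with FOS proteins or itself, was 8.06, 7.63 and 8.09 at its brighter probe set in null replicates 1 to 3, against 8.11, 8.74 and 8.40 in wild type replicates 1 to 3. Every null pool lay below every wild type pool, although the highest null pool (replicate 3) and the lowest wild type pool (replicate 1) nearly met. The difference was -0.49 ± 0.22 (SE, limma, n = 3 each), a null level of 0.711 of wild type, with an adjusted p of 0.980 in limma and an exact permutation p of 0.1. At its dimmer probe set Jun was 8.06, 7.78 and 7.74 in null pools, against 7.91, 8.39 and 8.06 in wild type pools. There null replicate 1 lay above wild type replicate 1, so the genotypes overlapped, and the difference was -0.26 ± 0.18 (SE). The 2 Jun probe sets varied together over the 6 arrays (r = 0.85).

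Ier3, a membrane protein gene induced by growth factors and NF-kappaB, was the other member with no overlap. It was 7.04, 7.28 and 7.18 in null replicates 1 to 3, against 7.66, 7.43 and 7.39 in wild type replicates 1 to 3. Its difference of -0.33 ± 0.13 (SE) had the smallest unadjusted p of the members, 0.0518 in limma, and an adjusted p of 0.980. The 95% interval ran from -0.67 to 0.0036.

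Fos, the prototype of the class, was 7.52, 6.18 and 6.72 in null replicates 1 to 3, against 7.41, 8.15 and 6.64 in wild type replicates 1 to 3. The genotypes overlapped throughout: the highest pool was wild type replicate 2, the lowest null replicate 2, and null replicate 1 exceeded 2 of the 3 wild type pools. The mean was 6.81 ± 0.67 in null and 7.40 ± 0.75 in wild type pools (SD, n = 3 each), so the difference of -0.59 was smaller than either SD. The spread among Fos values within a genotype was thus wider than the step between genotypes.

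Egr1, which binds GC-rich elements and is induced through the same serum response factor route as Fos, was 8.27, 7.68 and 7.92 in null replicates 1 to 3, against 7.96, 8.73 and 8.18 in wild type replicates 1 to 3. Again wild type replicate 2 was highest and null replicate 2 lowest, and null replicate 1 exceeded 2 wild type pools. Its difference was -0.33 ± 0.26 (SE). Nr4a1, the nuclear receptor also called Nur77, was 7.83, 7.76 and 7.45 in null replicates 1 to 3, against 7.76, 8.21 and 8.08 in wild type replicates 1 to 3. One wild type pool, replicate 1, fell within the null range, and the difference was -0.34 ± 0.18 (SE), with an exact permutation p of 0.2.

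Ier2 and Jund were the members with no lower mean in null pools. Jund, the subunit expressed most constantly in resting cells, was 9.40, 9.19 and 9.48 in null replicates 1 to 3, against 9.03, 9.53 and 9.40 in wild type replicates 1 to 3. Ier2, a nuclear protein gene induced together with Fos, was 7.79, 7.20 and 7.39 in null replicates 1 to 3, against 7.29, 7.57 and 7.51 in wild type replicates 1 to 3. The differences were 0.035 ± 0.18 for Jund and 0.0035 ± 0.19 for Ier2 (SE), with 95% intervals from -0.41 to 0.48 and from -0.48 to 0.49. Both signs turned on the values as deposited, to -0.0845 for Jund and -0.13 for Ier2, a scale on which array medians ran from 5.61 to 6.36.

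Signal of Fosb, Junb and Atf3 was dim, and these 3 genes lay below the 40th percentile of mean level, which the other 7 passed. The highest value among 19 measured genes of other organs, such as protamines, milk proteins and photoreceptor genes, was 4.64, and served as a measure of dim signal. Fosb, the FOS relative whose products accumulate under repeated stimulation, was 3.63, 2.51 and -0.12 in null replicates 1 to 3, against 3.43, 3.59 and 4.11 in wild type replicates 1 to 3. All 6 values lay under 4.64, so its difference of -1.70 ± 0.98 (SE) does not show a change in expression. With a pseudocount of 32 added to the signal it was -0.25.

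Atf3 was 4.83, 4.30 and 3.67 in null replicates 1 to 3, against 4.56, 3.67 and 5.06 in wild type replicates 1 to 3, with 2 of the 6 arrays above 4.64. The highest pool was wild type, null replicate 3 and wild type replicate 2 nearly tied as lowest, and the rest were mixed. Junb, a JUN relative that in many cells restrains JUN, was 4.78, 4.86 and 4.28 in null replicates 1 to 3, against 4.92, 5.38 and 4.31 in wild type replicates 1 to 3. Of these, 4 of 6 exceeded 4.64. The differences were -0.16 ± 0.47 for Atf3 and -0.23 ± 0.32 for Junb (SE), and that of Junb was 0.021 without wild type replicate 2.

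**Figure D1:**
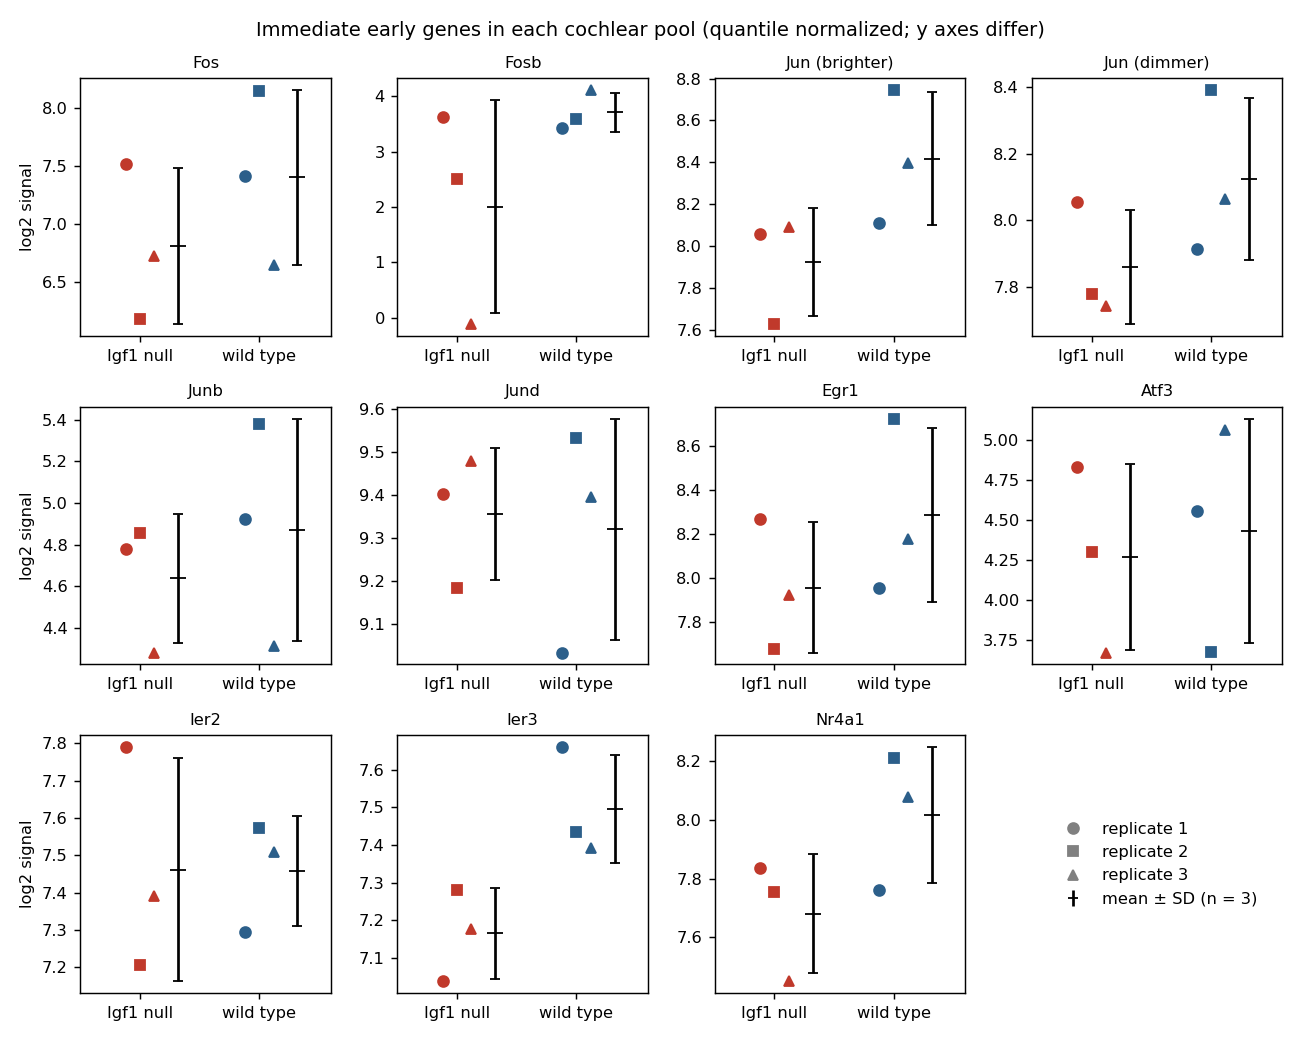
Log2 signal (quantile normalized, y axes differ) of the 11 probe sets in each Igf1 null pool (red, left) and wild type pool (blue, right), with symbols for replicate numbers and bars for mean ± SD (n = 3 each). Null and wild type pools do not overlap for Ier3 and for Jun at its brighter probe set and overlap at the other 9 probe sets.

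**Figure D2:**
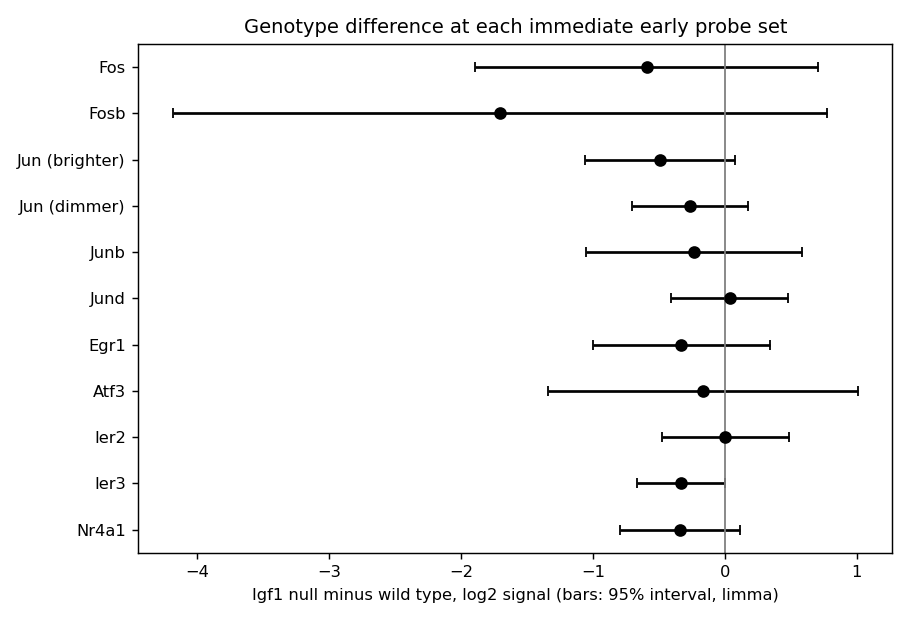
Igf1 null minus wild type log2 signal at each probe set (points) with the 95% interval from limma (bars). All 11 intervals include 0, and that of Ier3 ends at 0.0036.

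The direction differed with the number in the sample titles, which is 14 for replicate 1 and 16 for replicates 2 and 3 of each genotype and whose meaning is not given. Between the 2 arrays numbered 14, 3 of the 10 genes were lower and 7 higher in the null pool, with a median difference of 0.15. Among the 4 arrays numbered 16, all 10 were lower in null pools, with a median of -0.46. The share of all probe sets lower within each number was not counted, so these counts lack a background. The 10 genes also varied partly together, so they are not 10 separate results. Fos differed by 0.11 at number 14 and by -0.94 at number 16, Egr1 by 0.31 and -0.65, Ier2 by 0.50 and -0.24, and Nr4a1 by 0.074 and -0.54. Ier3 went the other way in size, with -0.62 at number 14 and -0.18 at number 16. Whether the difference depends on this number was not tested, since number 14 has 1 array a genotype.

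Within number 16 the difference was lower at replicate 2 than at replicate 3 for 6 of the 10 genes, Fos, Jun, Junb, Jund, Egr1 and Ier2, and the other 4 (Fosb, Nr4a1, Ier3 and Atf3) were lower at replicate 3. Null replicate 2 minus wild type replicate 2 was -1.97 for Fos, -1.12 for Jun at its brighter probe set and -1.05 for Egr1. Null replicate 3 minus wild type replicate 3 was 0.083, -0.30 and -0.25 for the same genes, and -4.23 for Fosb and -1.39 for Atf3, both dim. Jun at its brighter probe set, Junb and Ier3 were lower in the null pool at all 3 numbers, Junb by -0.15, -0.52 and -0.032. The share of all probe sets that did so was not counted. With wild type replicate 2 left out the median difference of the 10 genes was -0.23, with 7 lower, and Fos differed by -0.22 and Egr1 by -0.11.

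**Figure D3:**
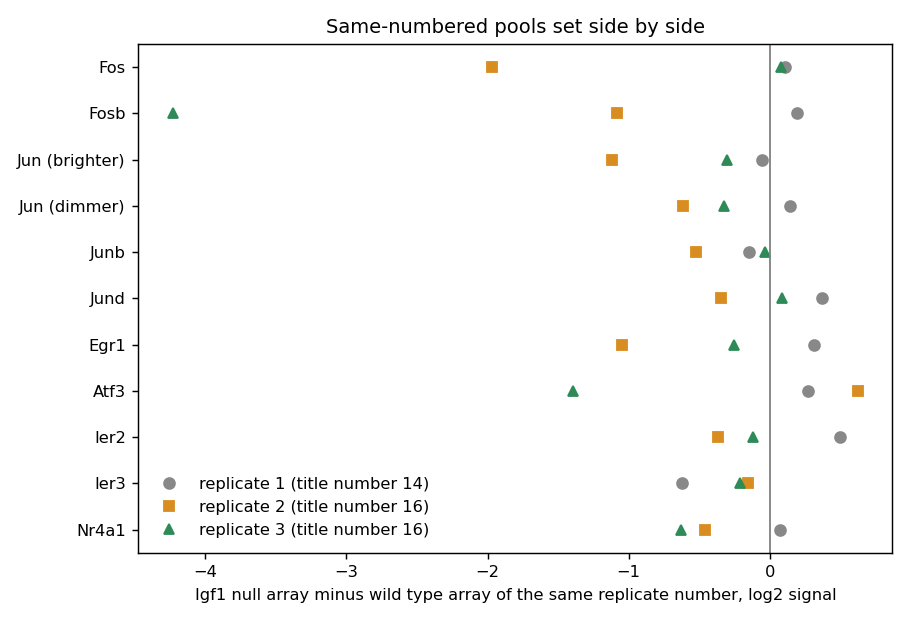
For each probe set, the null array minus the wild type array with the same replicate number (log2 signal), 1 symbol per number; a shared number was not shown to pair pools. Circles (title number 14) lie mostly above 0 and squares (replicate 2) mostly below it, from -1.97 for Fos to 0.63 for Atf3.

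The pools differed in how the 10 genes stood together. Wild type replicate 2 held the highest value of 6 genes (Fos, Jun, Junb, Jund, Egr1 and Nr4a1). Null replicates 2 and 3 held the lowest value of 4 genes each, Fos, Jun, Egr1 and Ier2 in replicate 2 and Fosb, Junb, Atf3 and Nr4a1 in replicate 3. Of the last 4, Fosb, Junb and Atf3 are the dim genes. Atf3 nearly tied there with wild type replicate 2 (both 3.67), and Junb with wild type replicate 3 (4.28 against 4.31). Of all probe sets, 17.9% had their highest value in wild type replicate 2, and 14.2% and 17.5% their lowest in null replicates 2 and 3. The mean z-score of the 10 genes was 0.26, -0.66 and -0.73 in null replicates 1 to 3, against -0.025, 0.89 and 0.27 in wild type replicates 1 to 3. Wild type replicate 2, highest in this profile, was also the pool with the most neuron and the least muscle signal. The other pools did not follow that order. Null replicate 3, with nearly as little muscle signal (mean 9.50), had the lowest mean z-score (-0.73). Null replicate 2, next highest in neuron signal (mean 8.54), stood at -0.66. The part of tissue content in the profile was not tested.

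**Figure D4:**
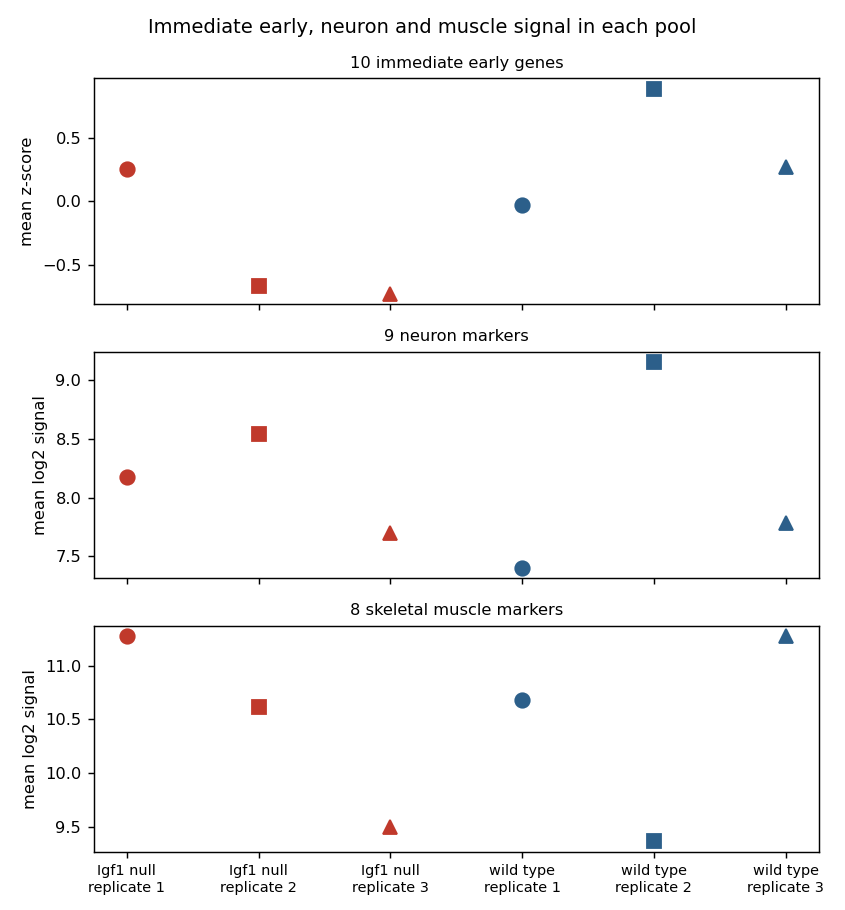
Mean z-score of the 10 immediate early genes, and mean log2 signal of 9 neuron and 8 skeletal muscle markers, in each null (red, left) and wild type pool (blue, right). Wild type replicate 2 is highest in the first 2 panels (0.89 and 9.15) and lowest in the last (9.36). Null replicate 3 is lowest in the first panel (-0.73) and next lowest in the last (9.50).

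Cartilage and bone markers were lower in null pools beside these genes, 9 of 9 and 7 of 7 measured, with medians of -0.35 and -0.23. Of all probe sets, 49.3% were lower. All pools held the otic capsule, but which cells gave these signals was not tested. No cartilage or bone marker passed the adjusted threshold in limma. Their summed signal ran from 21159 to 29323 in null and from 27611 to 33725 in wild type pools for cartilage, and from 22550 to 25443 in null and from 25254 to 29638 in wild type pools for bone. Erythroid markers (6 of 9 measured, 4 lower and 2 higher) had a median of -0.54. Their summed signal, weighted to the brightest of them, was 146 to 218 in null and 260 to 354 in wild type pools and did not overlap. Their mean log2 level did overlap, at 3.15, 2.99 and 3.41 in null replicates 1 to 3, against 3.96, 4.06 and 2.86 in wild type replicates 1 to 3. Endothelial markers were lower in 7 of 8 (median -0.095), while hair cell markers and supporting cell markers were higher in 7 of 8 measured each (medians 0.11 and 0.27), with summed signals that overlapped. The part of these cell types in the member values was not tested. As a sign of RNA quality, the 3′ minus the 5′ control signal of beta-actin was 0.94 ± 0.12 in null and 0.76 ± 0.043 in wild type arrays (SD, n = 3 each), higher in every null array (exact permutation p = 0.1). That of Gapdh was 0.35 ± 0.17 in null and 0.25 ± 0.062 in wild type arrays, which overlapped (exact permutation p = 0.5). The part of RNA quality was not tested either.

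Covariation among the 10 genes across the 6 pools was mostly positive. Of the 45 gene pairs, 36 had a Pearson r above 0, with a median r of 0.35, where 50.0% of pairs of all 12393 genes were above 0 with a median of 2e-04. The 7 genes that passed the level filter had a median r of 0.49 among their pairs. With genotype means subtracted the median over all 45 pairs was 0.24, with 29 pairs above 0, and without wild type replicate 2 it was 0.32.

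Egr1 had the highest median r with the other members (0.64), and Atf3 the lowest (-0.17). Jun and Egr1 had r = 0.90 (exact permutation p = 0.0319, adjusted over 45 pairs 0.479) and a Spearman rho of 0.66 (exact p = 0.175, adjusted 0.563). Fos and Egr1 had r = 0.85 (exact permutation p = 0.025, adjusted 0.479) and rho = 0.83 (exact p = 0.0583, adjusted 0.525). Without wild type replicate 2 and null replicate 2, the highest and lowest pools, r was 0.26 for Jun and Egr1 and 0.24 for Fos and Egr1, a step that also narrows the range of values. Without wild type replicate 2 alone r was 0.76 and 0.66, and with genotype means subtracted 0.90 and 0.81, for the same pairs. Fosb and Nr4a1 had r = 0.82 (exact permutation p = 0.0306, adjusted 0.479) and rho = 0.83 (exact p = 0.0583, adjusted 0.525). Their r was 0.45 without null replicates 2 and 3, the lowest Fosb values. All Fosb values lay under 4.64, so the limit set by dim signal holds for this pair too. By Spearman rho the pairs with an unadjusted p under 0.05 were Egr1 with Nr4a1 and Egr1 with Ier2 (rho = 0.89, exact p = 0.0333, adjusted 0.525 for each; r = 0.75 and 0.72). Thus 3 pairs passed unadjusted by r, 2 others by rho and 0 by both, and none passed adjusted over the 45 pairs by either. The share of all gene pairs that pass unadjusted was not counted. A threshold of 0.05 by itself passes up to that share of unrelated pairs, so the unadjusted counts single out no pair.

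Atf3 and Ier3 held the lowest r values. Over all 6 arrays Atf3 had r below 0 with Fos (-0.22), Jun (-0.20), Junb (-0.31), Jund (-0.38) and Egr1 (-0.17). With Fosb, dim like Atf3 itself, r was 0.65. Without wild type replicate 2, where Atf3 was low and the 5 genes of negative r were high, 4 of the 5 turned positive. Their r then ran from -0.14 (Jund) to 0.63 (Egr1). Ier3 had r = -0.53 with Jund and -0.50 with Ier2, and its highest r with any member was 0.35.

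**Figure D5:**
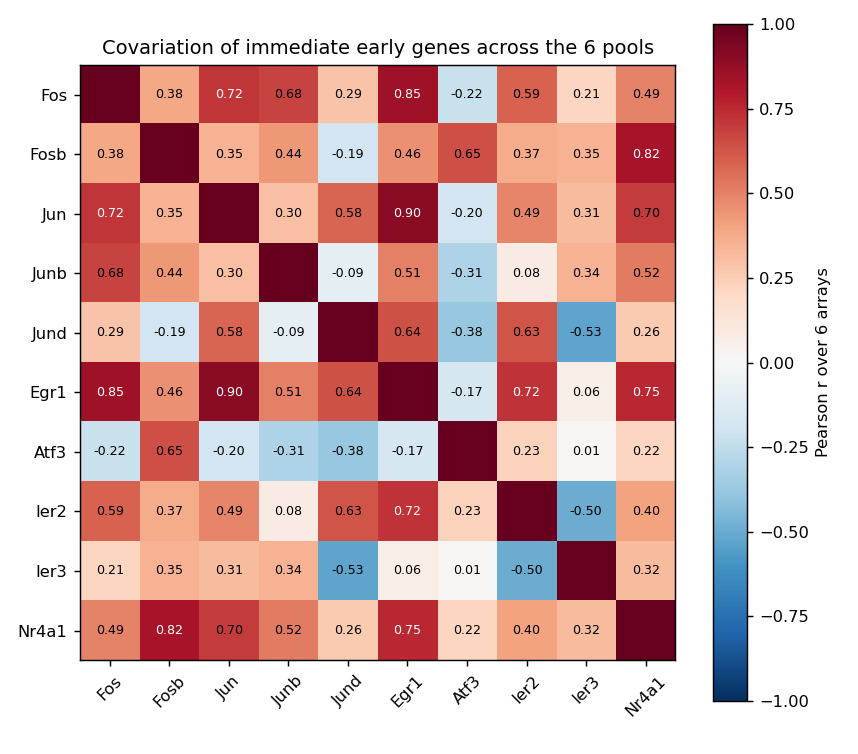
Pearson r over the 6 arrays for each pair of the 10 genes (brightest probe set each; red positive, blue negative). Fos, Jun, Egr1 and Nr4a1 form pairs of r from 0.49 to 0.90, and the negative values, down to -0.53, all involve Atf3, Ier3 or Jund.

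Genes outside the set whose profile was most like the mean z-score of the members, among 7095 genes above the median level, were Slc41a1, a magnesium transporter gene (r = 0.98 over the 6 arrays), Dusp1, a phosphatase gene that shuts off MAP kinases and is itself immediate early (0.96), Tram1l1 (0.96), Plpp1, a lipid phosphatase gene (0.96), and Rcan1, a calcineurin inhibitor gene (0.95). Of the genes ranked, 0.381% had r above 0.9, against 1.08% of pairs among genes above the median level. Dusp1 was 7.77, 7.30 and 7.13 in null replicates 1 to 3, against 7.53, 7.86 and 7.64 in wild type replicates 1 to 3.

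Other genes of the immediate early response did not pass either. The 42 measured had a median of -0.056, 28 of them lower and 14 higher, and 0 passed the adjusted threshold in limma, while 2 had an unadjusted p under 0.05. Those were Ccn2, a matricellular protein gene, with 9.98, 10.07 and 10.21 in null replicates 1 to 3, against 10.48, 10.45 and 10.67 in wild type replicates 1 to 3 (difference -0.45 ± 0.12 SE, adjusted p = 0.889), and Trib1, a pseudokinase gene, at 0.64 ± 0.17. Gadd45g, a stress-response gene, came next by p at -0.28 ± 0.12.

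Factors that act upstream of or beside the members were likewise not called. The 9 measured SRF, ternary complex and CREB pathway genes had a median of -0.074, with 6 below 0 and 3 above. Crtc2, a CREB coactivator gene, was higher in null pools as a value (0.70 ± 0.21 SE, adjusted p = 0.896 in limma), while Elk1, a ternary complex factor gene, stood at -0.64 ± 0.50 and Mrtfb, a cofactor gene of SRF with all values under 4.64, at -0.92 ± 0.72. Elk1 stood at -0.12 without null replicate 1 and -0.24 with the pseudocount of 32. Mrtfb stood at -1.70 without wild type replicate 2, -0.33 without wild type replicate 3 and -0.077 with that pseudocount. The 13 measured leucine zipper partners had a median of 0.070, with 4 below 0 and 9 above. Batf3 stood at 1.38 ± 0.42, Fosl1 at 1.13 ± 0.48 and Maf at -0.81 ± 0.36. No Batf3 or Fosl1 value exceeded 4.64, so those differences do not show a change. Maf was dim too, at 3.70, 4.10 and 4.18 in null pools, all under 4.64, against 4.08, 5.32 and 4.99 in wild type pools. Its difference was -0.34 with the pseudocount of 32.

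Heat shock and stress genes, read because handling induces them too, had 7 of 13 lower and 6 higher, with a median of -0.0083. Hmox1, the heme oxygenase gene induced by oxidative stress, was 4.85, 5.10 and 4.79 in null replicates 1 to 3, against 5.32, 5.83 and 5.61 in wild type replicates 1 to 3 (difference -0.68 ± 0.18 SE, adjusted p = 0.887 in limma). Hmox1 lay just below the 40th percentile of mean level and stood at -0.37 with the pseudocount of 32. Bag3, a co-chaperone gene, stood at -0.27 ± 0.13 and Hsp90aa1, a chaperone gene, at 0.16 ± 0.12. The 14 measured genes known as AP-1 targets had a median of -0.11, with 9 below 0 and 5 above, and Mmp14, a membrane metalloprotease gene, stood at -0.25 ± 0.16. In both lists 0 genes passed the adjusted threshold in limma and 1, Hmox1, had an unadjusted p under 0.05.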

How the data were processed

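RNA of 3 Igf1 null and 3 wild type pools was hybridised as biotin-labelled cRNA, 1 array per pool, per the labels' protocols. The authors deposited log2 signal for 22690 probe sets, a base read from the span of the numbers. How signal was summarised and background-corrected is not given in the sources used here. Array medians of the deposited log2 values differed, so the 22626 non-control probe sets were quantile normalized. Genotype was fitted with limma 3.58.1 in R 4.3.3 (lmFit, eBayes, two-sided; Benjamini-Hochberg over the whole table; threshold 0.05). Symbols came from the platform annotation, updated by Entrez identifier. A gene is its brightest probe set. Correlations used all 720 pairings (scipy 1.17.1), and the genotype permutation test all 20 splits. Alternatives were other scalings, a pseudocount, a level filter, a trended variance model, blocks and left-out arrays. Members and lists were chosen with earlier results of these data known. Outside the members and Igf1, the text names the 3 genes of smallest p in each of 5 lists. It also names the 5 genes of most similar profile. Tubb3, Nefm, Coch and Prox1 were named as examples of their marker lists. The number of arrays limits precision.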

Additional observations from a re-analysis of the deposited data

How the results depend on the processing

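No probe set passed the adjusted threshold in limma under the main setting or any of the 14 alternatives, with 673 to 1443 at an unadjusted p under 0.05 (1130 in the main setting). The median difference of the 10 genes stayed below 0 under all alternatives, from -0.47 on the values as deposited to -0.23 without wild type replicate 2. Leaving out single arrays gave medians from -0.43 to -0.23, and the level filter left 7 genes, of which 5 were lower. Of the 11 member probe sets 7 kept their sign under every alternative. Junb, which ran from -0.51 to 0.021 with single arrays left out, turned sign without wild type replicate 2, and Atf3 to 0.13 without null replicate 3 and 0.15 without wild type replicate 3. Jund turned to -0.0845 on the deposited values, -0.13 without the arrays of title number 14, -0.027 without null replicate 3 and -0.11 without wild type replicate 1. Ier2 turned to -0.13 on the deposited values, -0.24 without title number 14, -0.16 without null replicate 1 and -0.078 without wild type replicate 1. The cause was not tested. The smallest adjusted p of a member was 0.714 in limma. With the replicate number as a block, the replicate block fit called 0 probe sets with the same median of -0.33; same-numbered arrays deviated together with r = 0.040, 0.10 and 0.021 over all probe sets, and 0.19, 0.38 and 0.14 over those above the median level, each null array matching its own number best, which does not establish pairs. The median Igf1 difference was -0.55, and -0.69 on the deposited values. The median r of the gene pairs was 0.55 on the deposited values and 0.24 with genotype means subtracted, against 0.35. On the deposited values array medians differ, which adds a common shift to all genes. No flags for background came with the table, so dim genes such as Fosb limit what can be read.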
